A study of Mus musculus with 8 samples.

Results

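The Adam and Adamts genes of the mouse encode metalloproteases of the cell surface and the extracellular matrix, and their RNA was measured here in fibroblasts before and after c-Src was induced. Members were the array probes, controls left out, whose gene symbol is Adam, Adamts or Adamtsl followed by a number, with a letter allowed after an Adam number. The rule found 82 of the 55681 probes of the array that are not controls, for 56 genes. Of these, 36 probes of 28 genes were well above background on both arrays of at least 1 time, which is the condition for being described here, and 28609 probes of 20839 genes met it over the whole array. They comprised 16 of 32 Adam genes, 10 of 19 Adamts genes and 2 of 5 Adamtsl genes.

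The cells were mouse embryonic fibroblasts without Csk (Csk-/-), the kinase that restrains Src family kinases, and all of them had been transfected with an inducible c-Src vector. Total RNA was taken at 0 h and after 6, 24 and 72 h of c-Src induction with doxycycline (1 µg/ml), and the 0 h cells carried the same knockout and vector. Each time had 2 one-colour oligonucleotide arrays, 8 in all, and the labels give them as duplicates without naming separate cultures, so the p-values rest on differences between duplicate arrays that may be technical only. Neither doxycycline without the vector nor a change of culture time alone is among the groups, and time followed the row on the slide, so the effects of these and of c-Src cannot be told apart.

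ADAM proteins are membrane-bound and typically carry a metalloprotease and a disintegrin domain, and the active ones release growth factors, cytokines, receptors and adhesion molecules from the cell surface. ADAMTS proteins are secreted, carry thrombospondin repeats, and cut proteoglycans, procollagens and other matrix proteins. ADAMTS-like proteins share the repeats without the protease domain and are known from fibrillin microfibrils. In fibroblasts these families are known for matrix turnover and for the shedding of ligands of the EGF receptor.

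The members named in the results are measured by 60-base probes, and the first 30 bases of 6 probes, of genes with large changes and of the neighbours Adamts1 and Adamts5, are shown so that each measurement can be tied to its transcript. Positions are on mm9, as the files give them. The probes are Adam19 at chr11:45960740-45960799 on the + strand, Adam8 at chr7:147164873-147164932 on the - strand, Adamts16 at chr13:70867148-70867207 on the - strand, Adamts5 at chr16:85858402-85858461 on the - strand, Adamts1 at chr16:85795044-85795103 on the - strand and Adamtsl4 at chr3:95480135-95480194 on the - strand. Whether a probe lies in coding sequence or a UTR was not analysed here.
Adam19: catctatgcaaaatacttgaatgggccatg
Adam8: ccgtcatctccggattgaaacagattagtt
Adamts16: gatgggggctatgatatagggctttgcata
Adamts5: ggacacattgcaatacaggtccattcatta
Adamts1: gaaagagctcctgatttcttcttacaccat
Adamtsl4: ccacttcacactgaaaatgatgcccacccc

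The 75th percentile of the processed signal lay between 370.3 and 393 intensity units on the 8 arrays, and between 49.9% and 54.7% of the 59305 spots that are not controls were well above background. No spot was saturated, and replicate arrays correlated across genes with r between 0.9964 and 0.9975. Src, the induced gene, was 26.9-fold higher at 6 h, 23.8-fold at 24 h and 19.6-fold at 72 h than at 0 h, and the Csk probe was well above background on 0 of 8 arrays. Of 10 fibroblast markers, 8 were measured and Thy1 and Fap were not well above background. The defining markers Cdh1 and Epcam of epithelium, Ptprc of leukocytes, and Cdh5 and Tie1 of endothelium were not well above background at any time. Other listed markers of these cells were measured: 4 of 8 for epithelium, 4 of the 7 on the array for macrophages and 4 of 7 for endothelium. Their summed levels are given below.

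At 6 h of induction 8 of the 28 genes differed from 0 h (28.6%), 5 higher and 3 lower, where 17.6% of all genes passed the same test (10.3% higher and 7.24% lower). After 24 h 14 genes differed from 0 h (8 higher and 6 lower), or 50%, against 41.5% of all genes. By 72 h 17 genes differed from 0 h (6 higher and 11 lower), or 60.7%, against 52% of all genes. The test was limma on normalized log2 signals, with Benjamini-Hochberg adjustment over all 20839 genes and a threshold of 0.05. These 3 comparisons share the 0 h arrays. Adamts16, among the lower genes at 24 and 72 h, was described only through 0 and 6 h. The median log2 difference of the 28 genes was -0.002 at 6 h, 0.032 at 24 h and -0.23 at 72 h, against 0.005, -0.016 and 0.002 over all genes. At 24 h 21.3% of all genes were higher and 20.1% lower, and at 72 h 27.4% were higher and 24.6% lower.

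The split by direction depended on how the arrays were scaled. With each array's median in place of the 75th percentile, the median of all genes moved to 0.133 at 24 h and 0.183 at 72 h, and the members split into 11 higher and 7 lower at 24 h and into 7 and 7 at 72 h. With the percentile taken over probes detected on all arrays, they split into 6 higher and 8 lower at 24 h and into 6 and 14 at 72 h. Over all genes the calls were 2152 higher and 1508 lower at 6 h, 4449 and 4196 at 24 h, and 5719 and 5125 at 72 h. Median scaling gave 1756 and 527, 6042 and 2052, and 8022 and 2664 for the same times, and the percentile over detected probes gave 1637 and 2625, 3722 and 5379, and 4394 and 6713. Quantile normalization gave 1804 higher and 2040 lower at 6 h.

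The 2 steps between later times added to this. From 6 to 24 h, 10 members passed the test (4 higher and 6 lower at 24 h) against 26.2% of all genes, and from 24 to 72 h 12 passed it (3 higher and 9 lower at 72 h) against 21.6% of all genes. Among these 9, Adamts16 was not well above background at either time. The members' median log2 difference was -0.053 for the first of these steps and -0.20 for the second, against -0.018 and 0.015 over all genes. Over all genes the first step gave 2620 higher and 2832 lower calls (2980 and 1338 with median scaling) and the second 2249 and 2262 (1622 and 1005 with median scaling). In at least 1 of the 5 comparisons, 19 of the 28 genes passed the test: 8 of 16 Adam genes, 9 of 10 Adamts genes and both Adamtsl genes. Of all genes 63.1% passed in at least 1 of the 5, so that the members' total lay near that of all genes, and the difference between the families was not tested. All 19 did so in a comparison with 0 h.

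**Figure D1:**
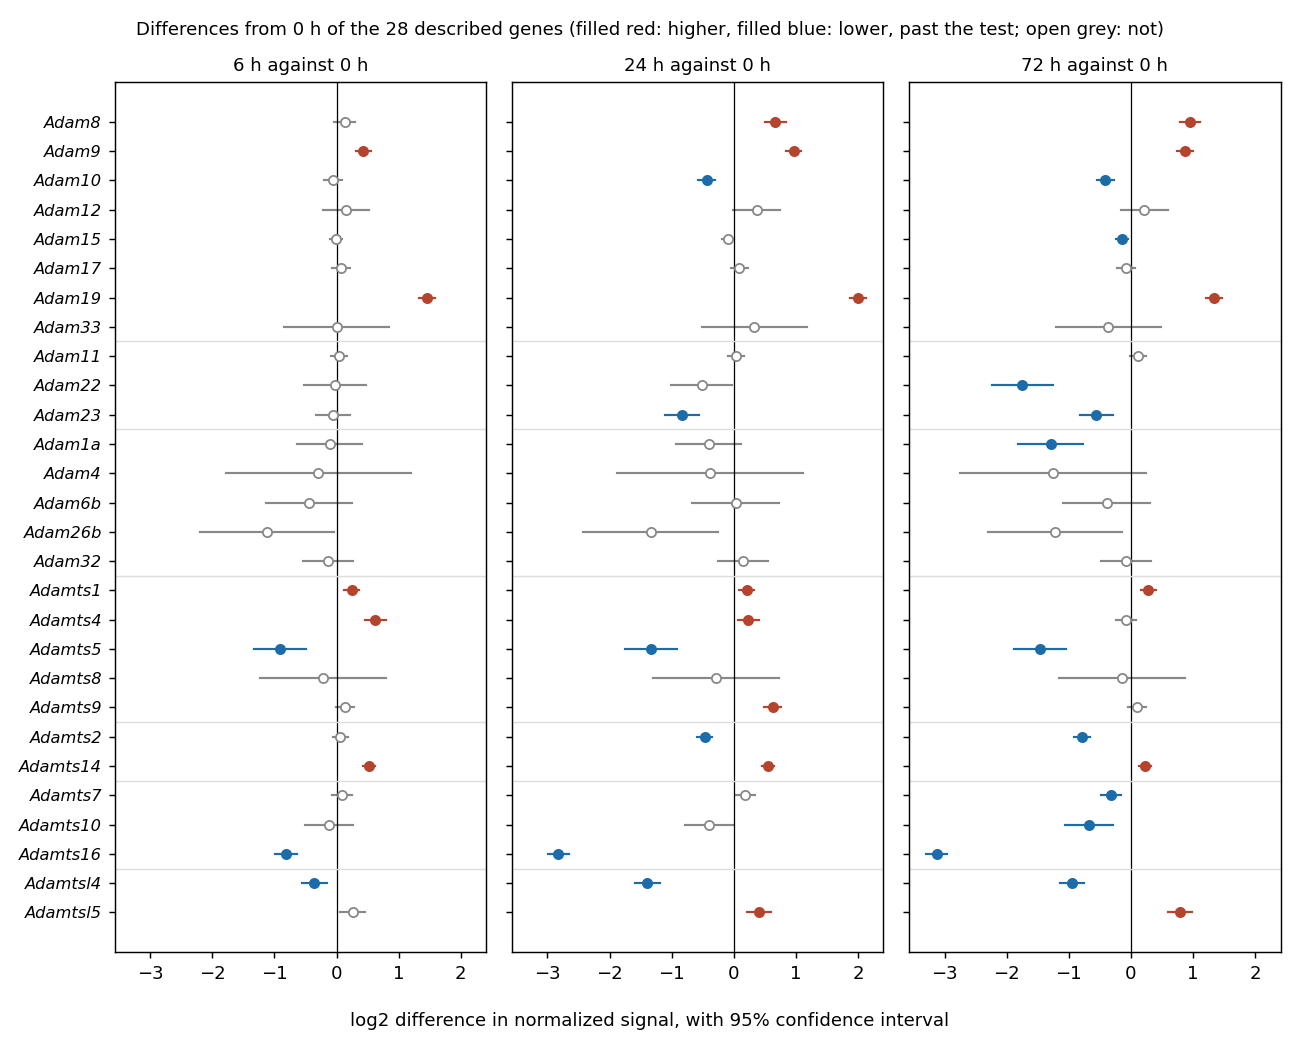
Log2 differences in normalized signal from 0 h at 6, 24 and 72 h (panels) for the 28 genes (rows, grouped by role), with 95% confidence intervals, filled where the adjusted p passed the threshold. Adam19 lies farthest to the right in each panel, at 1.46, 2.004 and 1.33, and Adamts16 farthest to the left at 24 and 72 h, where it was not well above background.

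Among the sheddases, Adam19, Adam9 and Adam8 rose. Adam19 encodes meltrin beta, a protease known for releasing neuregulins and for its part in heart development. Its processed signals were 138.7 and 129.5 at 0 h, 348.5 and 367.2 at 6 h, 554.8 and 528.3 at 24 h, and 338.9 and 332.7 at 72 h (intensity units, here and below, replicate 1 before replicate 2). All 6 induced arrays lay above both 0 h arrays, and the 24 h arrays were the highest. Over all genes, the arrays did not overlap with those of 0 h for 62.7% at 6 h, 69.9% at 24 h and 78.1% at 72 h. For the steps from 6 to 24 h and from 24 to 72 h these shares were 65.1% and 64.9%. They apply to every such statement below. The log2 difference of Adam19 from 0 h was 1.46 ± 0.053 at 6 h, 2.004 ± 0.053 at 24 h and 1.33 ± 0.053 at 72 h (± SE, n = 2 arrays a time), that is 2.74-, 4.01- and 2.52-fold, with limma adjusted p of 0.000156, 3.96e-05 and 5.19e-05. Between 24 and 72 h it fell by 0.67 on the log2 scale (adjusted p = 0.00288). In bulk RNA, fewer cells of a kind and less RNA per cell cannot be told apart, here and for every fall or rise below.

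Adam9, a widely expressed sheddase of EGF family ligands, gave 8065.7 and 7954.6 at 0 h, 10453.3 and 10584.8 at 6 h, 15540.2 and 15954.7 at 24 h, and 14608.7 and 14445.3 at 72 h. No array of one time fell within the range of another. Adam9 was 1.35-fold higher at 6 h, 1.95-fold at 24 h and 1.83-fold at 72 h than at 0 h (log2 0.43, 0.96 and 0.87, SE 0.049, limma adjusted p of 0.00525, 0.000169 and 0.000103). From 24 to 72 h its log2 difference was -0.097 (adjusted p = 0.216).

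Adam8, best known from activated leukocytes, gave 336.9 and 351.8 at 0 h, 379.9 and 355.7 at 6 h, 542.6 and 560.7 at 24 h, and 648.9 and 673.5 at 72 h. Unlike Adam9 and Adam19, it did not pass the test at 6 h. The log2 difference from 0 h was then 0.13 (limma adjusted p = 0.231), although both 6 h arrays lay above those of 0 h. Whether the genes differed in timing was not tested. The difference of Adam8 from 0 h was 0.67 at 24 h and 0.95 at 72 h (SE 0.068, adjusted p of 0.00101 and 0.000205). A further 0.28 from 24 to 72 h passed with adjusted p = 0.0369, but not when an array of 0 or 6 h, 24 h replicate 1 or either 72 h array was left out (0.227 to 0.33, adjusted p of 0.0552 to 0.164). Macrophage markers, whose cells are a known source of Adam8, summed to 16.5 to 17.6 times the array's 75th percentile at 24 h, 17.4 to 18.2 at 72 h and 16.9 to 18.1 at 0 h over 4 measured markers, with Ptprc not well above background; at 24 h 3 and at 72 h 2 of these 4 were higher than at 0 h and none lower. Their part in the rise of Adam8 was not tested.

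Adam10, the main sheddase of Notch receptors and of N-cadherin, gave 5982 and 6018.6 at 0 h, 5697.1 and 5513.4 at 6 h, 4619.5 and 4304.3 at 24 h, and 4354.9 and 4588.8 at 72 h. The 24 and 72 h arrays lay below those of 0 and 6 h. It was 1.35-fold lower at 24 h and 1.33-fold lower at 72 h than at 0 h (log2 -0.44 and -0.41, SE 0.056, limma adjusted p of 0.00232 and 0.00194), and -0.38 at 24 h against 6 h passed too (adjusted p = 0.00745). With median scaling neither the fall at 72 h from 0 h, at -0.233, nor that at 24 h from 6 h, at -0.283, passed (adjusted p of 0.0757 and 0.0768).

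Adam15, a disintegrin and sheddase of adherent cells, gave 17391.8 and 17511.8 at 0 h, 16871.7 and 16973.6 at 6 h, 16675.9 and 16152 at 24 h, and 15895.6 and 15426.4 at 72 h. It was 1.11-fold lower at 72 h than at 0 h (log2 -0.15 ± 0.038, limma adjusted p = 0.0224), a direction that turned to 0.035 (adjusted p = 0.733) with median scaling. The call was lost without either 0 h array or either 72 h array, with values of -0.147 to -0.146 and adjusted p of 0.0802 to 0.0957.

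Adam17, the TNF-alpha converting enzyme and the main sheddase of EGF receptor ligands, did not pass the test on its brighter probe. That probe gave 97.8 and 100.9 at 0 h, 100 and 103.8 at 6 h, 104.0 and 109.1 at 24 h, and 93.7 and 92.8 at 72 h, with log2 differences from 0 h of 0.076 (95% confidence interval -0.065 to 0.218), 0.091 (-0.05 to 0.232) and -0.082 (-0.223 to 0.06). Adam12, meltrin alpha, known from muscle and adipose development, ranged from 24.0 to 34.2 over the 8 arrays, with log2 differences from 0 h of 0.153, 0.367 and 0.217 and adjusted p of 0.108 and above in the 5 comparisons. Adam33 ranged from 37.8 to 96.0, where the highest was 24 h replicate 2 and its replicate gave 47.2.

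**Figure D2:**
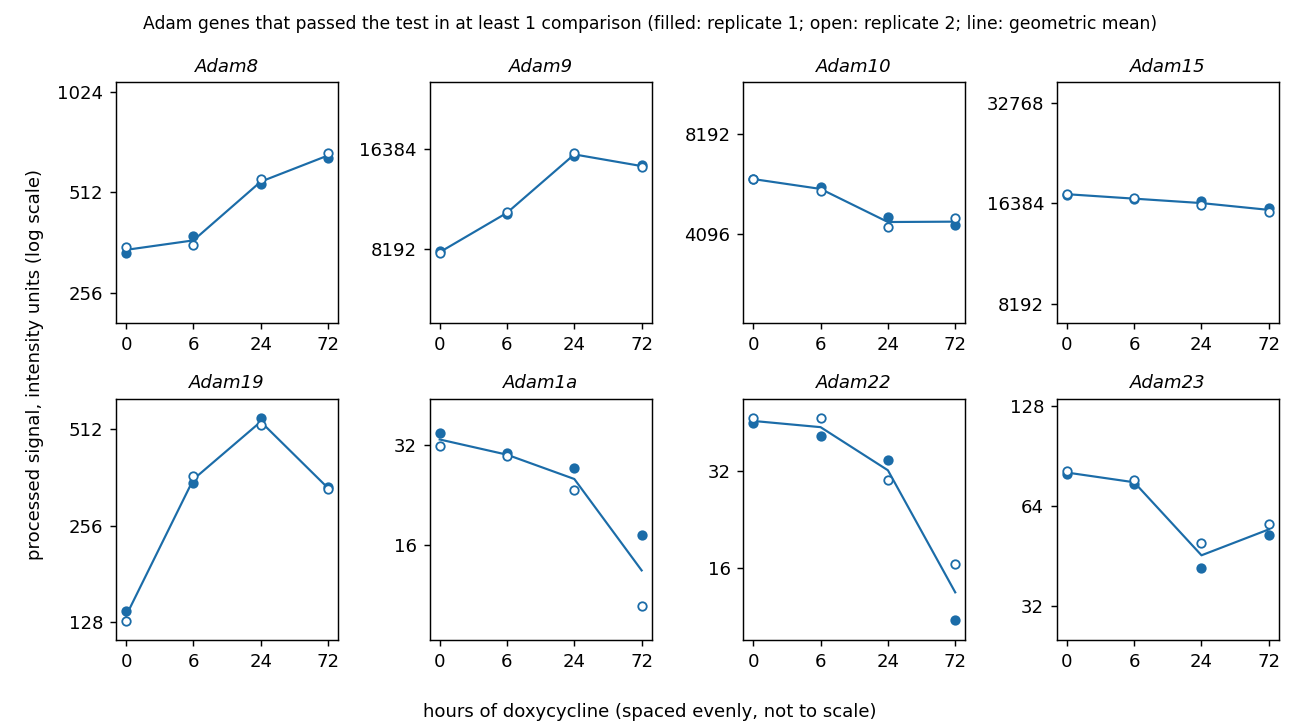
Processed signal (intensity units, log scale, own range per panel) of the 8 Adam genes that passed the test in at least 1 comparison, at 0, 6, 24 and 72 h of doxycycline, with both arrays of a time as points and their geometric mean as a line. Adam19 peaks at 24 h with 554.8 and 528.3, Adam8 and Adam9 end above their 0 h arrays, and the other 5 genes end below theirs.

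Adam11, Adam22 and Adam23 lack an active protease site and are known as neuronal surface proteins that bind secreted LGI proteins. Adam23 gave 79.9 and 81.6 at 0 h, 74.5 and 76.5 at 6 h, 41.8 and 49.7 at 24 h, and 52.6 and 56.5 at 72 h. It was 1.78-fold lower at 24 h and 1.47-fold lower at 72 h than at 0 h (log2 -0.83 and -0.56, SE 0.109, limma adjusted p of 0.00241 and 0.00774). With normexp background correction the 72 h difference was -0.257 and did not pass (adjusted p = 0.0671). Adam22 gave 44.8 and 46.4 at 0 h, 41.0 and 46.4 at 6 h, 34.4 and 29.9 at 24 h, and 11.0 and 16.4 at 72 h. It was 3.37-fold lower at 72 h than at 0 h (log2 -1.75 ± 0.199, adjusted p = 0.000979), but with normexp background correction, which adds an offset before the log, -0.51 (1.42-fold, adjusted p = 0.000484). From 24 to 72 h its log2 difference was -1.23 (adjusted p = 0.0129), which became -1.16 (adjusted p = 0.0657) without 24 h replicate 1 and -0.318 with normexp (adjusted p = 0.015).

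Adam1a, Adam4, Adam6b, Adam26b and Adam32 are known from testis and sperm, and their probes were dim. Adam1a, a subunit of the sperm protein fertilin, gave 34.8 and 31.7 at 0 h, 30.2 and 29.6 at 6 h, 27.3 and 23.4 at 24 h, and 17.2 and 10.5 at 72 h. At 72 h replicate 1 was the only array of that time well above background. The log2 difference of 72 h from 0 h was -1.29 ± 0.211 (2.45-fold lower, limma adjusted p = 0.00393), a fold that takes replicate 2 at its signal although it was not well above background, and -0.343 with normexp (1.27-fold, adjusted p = 0.000742). From 24 to 72 h it was -0.89 (adjusted p = 0.0357), a call lost without any 1 of the 6 arrays of 0, 6 and 24 h, at -0.971 to -0.811 (adjusted p of 0.0606 to 0.144). With normexp it was -0.175 and still passed (adjusted p = 0.0403).

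The other 4 of these did not pass the test. Adam26b gave 33.3 to 47.3 on the 6 induced arrays against 62.6 and 155.6 at 0 h, and its 24 h difference was -1.34 (limma adjusted p = 0.0553). Adam4 was described through 6 h, with 17.7 and 19.0, and gave 11.9 and 44.9 at 0 h. Adam6b ranged from 13.5 to 25.8 and Adam32 from 35.1 to 49.9 over the 8 arrays.

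The ADAMTS proteases that cut aggrecan and versican moved in both directions. Adamts1, which cuts both proteoglycans, gave 1604.4 and 1523 at 0 h, 1758.3 and 1839.8 at 6 h, 1862.6 and 1778.2 at 24 h, and 1918.5 and 1856.2 at 72 h. Its 0 h arrays lay below all others by a small step: 1.18-, 1.16- and 1.22-fold at 6, 24 and 72 h (log2 0.24, 0.21 and 0.28, SE 0.048, limma adjusted p of 0.0248, 0.0175 and 0.00471). The 6 h call was lost without any 1 array of 0, 6 or 72 h (0.2 to 0.284), and the 24 h call without 0 h replicate 2 or either 24 h array (0.168 to 0.213). Normexp, the percentile over detected probes and no filter on dim probes ended both calls. They gave 0.174 to 0.242 at 6 h and 0.146 to 0.21 at 24 h (limma adjusted p of 0.0551 to 0.14 and 0.0508 to 0.0928). Quantile normalization and median scaling ended the 6 h call, at 0.196 and 0.295 (limma adjusted p of 0.0518 and 0.103).

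Adamts4, aggrecanase-1, gave 2406.6 and 2473.7 at 0 h, 3565.3 and 3756.5 at 6 h, 2796 and 2984.4 at 24 h, and 2261 and 2319.2 at 72 h on its brighter probe. On this probe the 6 h arrays were the highest and the 72 h arrays the lowest. The second probe was still above 0 h at 72 h, by 0.34 on the log2 scale, as described below. On the brighter probe Adamts4 was 1.54-fold higher at 6 h than at 0 h (log2 0.63 ± 0.067, limma adjusted p = 0.00456). It was 0.23 higher at 24 h (adjusted p = 0.0375) and -0.082 at 72 h (adjusted p = 0.353). From 6 to 24 h the difference was -0.39 (adjusted p = 0.0116, and 0.0662 without 6 h replicate 2, at -0.359). The 24 h difference from 0 h was lost without any 1 array other than 24 h replicate 1 (0.157 to 0.249, adjusted p of 0.058 to 0.135), and the difference of -0.31 from 24 to 72 h (adjusted p = 0.0269) without any 1 array other than 24 h replicate 1 (-0.356 to -0.238, adjusted p of 0.0502 to 0.129).

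Adamts5, aggrecanase-2 and the genomic neighbour of Adamts1 on chromosome 16, fell at every time. It gave 68.1 and 64.3 at 0 h, 29.5 and 39.4 at 6 h, 29.1 and 24.1 at 24 h, and 21.7 and 26 at 72 h, so that no induced array reached the 0 h arrays. The fold was 1.89 at 6 h, 2.51 at 24 h and 2.77 at 72 h (log2 -0.92, -1.33 and -1.47, SE 0.169, limma adjusted p of 0.0195, 0.00221 and 0.00103). At 6 h the call was lost without either 0 h array or 6 h replicate 1, at -0.962 to -0.713 (adjusted p of 0.07 to 0.0891), and with normexp background correction, at -0.388 (adjusted p = 0.0617). Normexp also gave smaller falls at 24 and 72 h, -0.555 and -0.583 (1.47- and 1.5-fold, adjusted p of 0.00747 and 0.00453).

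Adamts9, which cuts versican, gave 732.6 and 724.9 at 0 h, 786.5 and 776.6 at 6 h, 1183.2 and 1083.8 at 24 h, and 753.8 and 796.0 at 72 h. The 24 h arrays stood above all others. It was 1.54-fold higher at 24 h than at 0 h (log2 0.63 ± 0.057, limma adjusted p = 0.000759) and lower again at 72 h than at 24 h (-0.53, adjusted p = 0.00518), while 0.141 at 6 h and 0.098 at 72 h from 0 h did not pass (adjusted p of 0.154 and 0.204). Adamts8, of the same group by its known cutting of aggrecan, ranged from 25.0 to 56.6, with both extremes among the 0 h arrays, and passed in no comparison.

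The procollagen N-proteinases Adamts2 and Adamts14, which remove the amino-terminal propeptide of fibrillar collagens, parted. Adamts2 gave 5239.1 and 5143.3 at 0 h, 5097 and 5449.8 at 6 h, 3934.3 and 3648.5 at 24 h, and 3041.1 and 2934.6 at 72 h. It was 1.38-fold lower at 24 h and 1.73-fold lower at 72 h than at 0 h (log2 -0.46 and -0.79, SE 0.049, limma adjusted p of 0.00119 and 0.000136), and -0.32 from 24 to 72 h passed (adjusted p = 0.0109) but not without 24 h replicate 1 or either 72 h array (-0.327 to -0.299, adjusted p of 0.0513 to 0.0653).

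Adamts14 gave 3956.2 and 3942.9 at 0 h, 5448.4 and 5627.1 at 6 h, 5980.3 and 5702.2 at 24 h, and 4682.5 and 4509.1 at 72 h. All induced arrays lay above the 0 h arrays, those of 6 and 24 h highest. The folds over 0 h were 1.44, 1.47 and 1.17 (log2 0.53, 0.55 and 0.23, SE 0.04, limma adjusted p of 0.00168, 0.000368 and 0.00508). None of these passed with the mean of the Adamts14 probes, at 0.298, 0.585 and 0.363 (limma adjusted p of 0.355, 0.0619 and 0.178). From 24 to 72 h it fell by 0.33 on the log2 scale (adjusted p = 0.00656), which was lost with median scaling (-0.294, adjusted p = 0.0663), with no filter on dim probes (adjusted p = 0.0563) and with the mean of its probes (-0.222, adjusted p = 0.464).

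Adamts16, known from kidney and gonads, fell at 6 h and was not well above background at 24 and 72 h. Its signals were 91.6 and 90.3 at 0 h, 47.8 and 53.0 at 6 h, 12.7 and 13.2 at 24 h, and 10.6 and 10 at 72 h. Another Adamts16 probe, annotated to the same RefSeq transcript, gave 3.5 and 5 at 0 h and was well above background on no array. The described probe was well above background on both arrays of 0 and 6 h and on none of 24 and 72 h. At 6 h it was 1.76-fold lower than at 0 h (log2 -0.81 ± 0.069, limma adjusted p = 0.0023). Adamts16 was described only through 0 and 6 h, where its signal was high, and this choice favours a fall at the later times. For those times only a bound is given, and it depends on the floor. The bound was set against the higher of 2 signals per array, the probe's own and the dimmest one that still counts as well above background. Adamts16 was at least 6.69-fold lower at 24 h and at least 7.56-fold lower at 72 h than at 0 h. At 24 h it was at least 3.81-fold lower than at 6 h, and no fold is given between 24 and 72 h, where neither was well above background. The limma adjusted p-values, 3.55e-05 and 1.89e-05 against 0 h and 0.000339 against 6 h, belong to the differences in measured signal and not to these bounds. With 1 floor common to all arrays the difference from 0 h was -2.569 (5.93-fold) at both 24 and 72 h, and with normexp it was -0.958 and -1.025 (1.94- and 2.03-fold, adjusted p of 2.8e-05 and 1.03e-05).

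Adamts7, which cuts cartilage oligomeric matrix protein, gave 396.8 and 397.0 at 0 h, 399.0 and 418.8 at 6 h, 470.1 and 437.7 at 24 h, and 303.0 and 329.8 at 72 h. The 72 h arrays were the lowest, 1.25-fold under 0 h (log2 -0.32 ± 0.066, limma adjusted p = 0.00953) and 1.42-fold under 24 h (-0.50, adjusted p = 0.00766). With median scaling the first of these was -0.137 and did not pass (adjusted p = 0.262). Adamts10, known from fibrillin microfibrils, gave 86.2 and 70.5 at 0 h, 69.5 and 69.2 at 6 h, 68.2 and 52.3 at 24 h, and 53.7 and 43.6 at 72 h. At 72 h it was 1.6-fold lower than at 0 h (log2 -0.68 ± 0.156, adjusted p = 0.0142), which was -0.529 without 0 h replicate 1 and -0.55 without 72 h replicate 2 (adjusted p of 0.0658 and 0.0722), and -0.498 with median scaling (adjusted p = 0.0854).

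Of the ADAMTS-like genes, Adamtsl4, known from the fibrillin microfibrils that hold the lens, fell. It gave 899.1 and 1043.5 at 0 h, 745.9 and 728.2 at 6 h, 392.8 and 352.7 at 24 h, and 503.9 and 494.8 at 72 h, with no overlap between times. The folds under 0 h were 1.28, 2.62 and 1.93 (log2 -0.35, -1.39 and -0.95, SE 0.079, limma adjusted p of 0.0338, 0.000206 and 0.000333). The 6 h call was lost without 0 h replicate 2, either 6 h array or either 72 h array (-0.378 to -0.251, adjusted p of 0.0688 to 0.149). From 24 to 72 h it was 0.44 higher (adjusted p = 0.0165), lost without any 1 of the 4 arrays of 24 and 72 h (0.396 to 0.491, adjusted p of 0.0514 to 0.0837).

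Adamtsl5 gave 391.0 and 416.1 at 0 h, 486.6 and 453.5 at 6 h, 516.0 and 563.9 at 24 h, and 710.4 and 675.4 at 72 h on its brighter probe, the highest arrays being those of 72 h. It was 1.33-fold higher at 24 h and 1.73-fold higher at 72 h than at 0 h (log2 0.41 and 0.79, SE 0.08, limma adjusted p of 0.00978 and 0.000647), and 0.26 at 6 h did not pass (adjusted p = 0.0798). Without 0 h replicate 1 the 24 h difference was 0.369 (adjusted p = 0.0521). The step of 0.38 from 24 to 72 h (adjusted p = 0.0254) was lost without 24 h replicate 1 or either 72 h array (0.286 to 0.395, adjusted p of 0.0847 to 0.117).

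**Figure D3:**
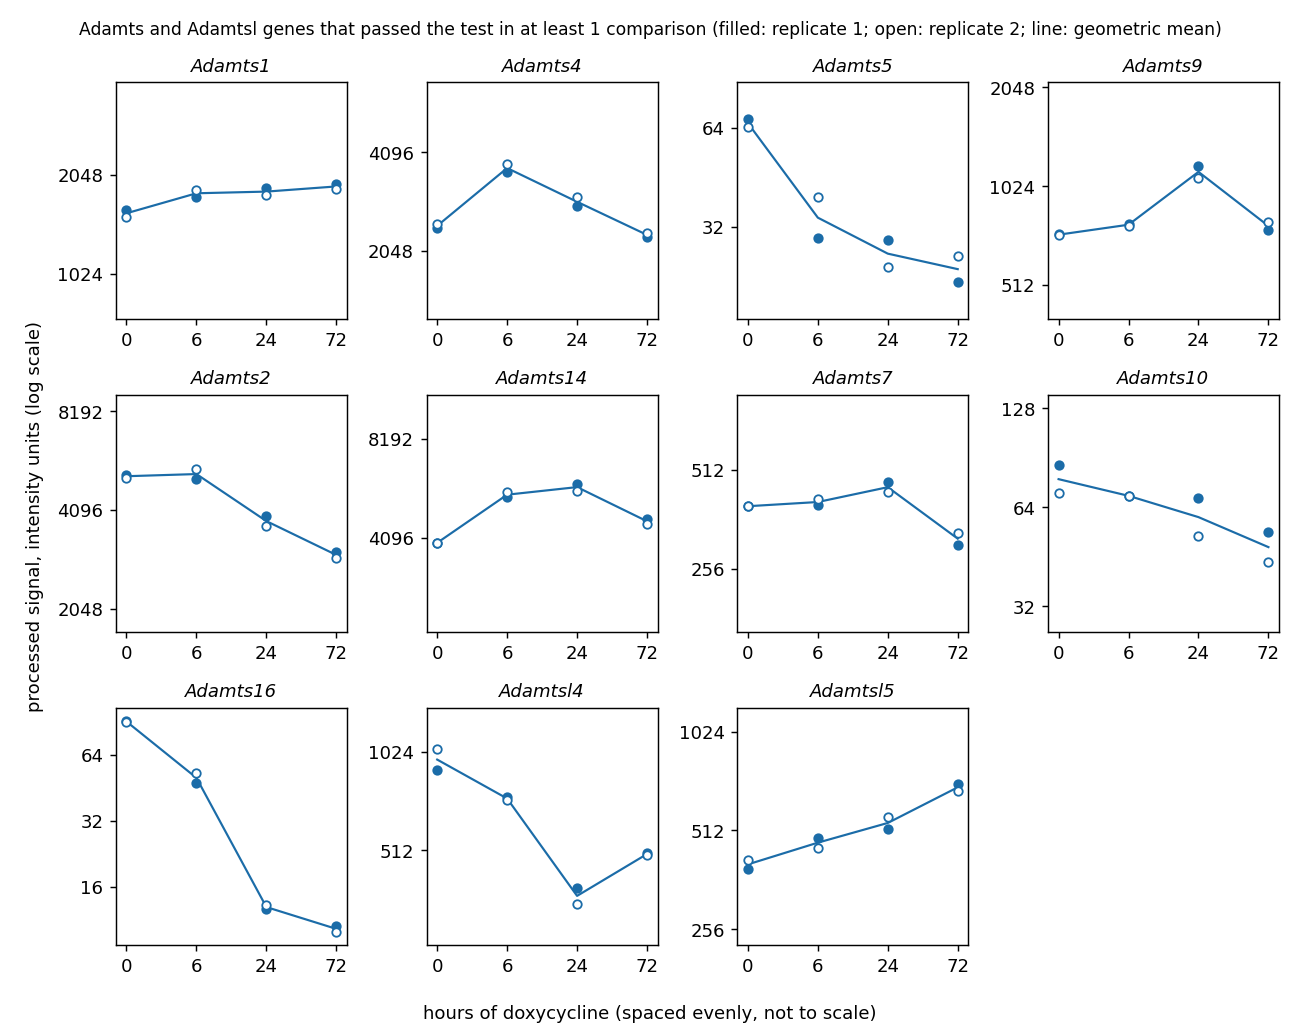
Processed signal (intensity units, log scale, own range per panel) of the 9 Adamts and 2 Adamtsl genes that passed the test in at least 1 comparison, at 0, 6, 24 and 72 h of doxycycline, with both arrays of a time as points and their geometric mean as a line. At 72 h Adamts4, on its brighter probe, and Adamts9 differed from 0 h by -0.082 and 0.098 on the log2 scale, which did not pass the test. The second Adamts4 probe, not shown here, was 0.34 higher at 72 h than at 0 h. Adamts5 and Adamts16 lie below both 0 h arrays on all 6 induced arrays.

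Of the 28 genes, 8 had a pair of described probes, and a test of whether both probes changed alike was added after the data were seen. It used limma on the log ratio of the probes on each array, adjusted over the 7770 such ratios of the whole array, of which 0.0257% passed at 6 h, 4.71% at 24 h and 15.5% at 72 h against 0 h, 0.0901% at 24 h against 6 h and 2.84% at 72 h against 24 h. Array scaling cancels in this ratio. The probes changed unequally for Adam11 at 24 and 72 h, for Adamts4 at 72 h and for Adamtsl5 at 72 h. For Adamts4, Adamtsl5 and Adam11, the pairs of probes lie apart on the same gene, and their first 30 bases are shown in order of position on mm9.
Adam11 at chr11:102638157-102638216, brighter: tgcagtattcacaacccactgcccacgtcc
Adam11 at chr11:102641316-102641375, second: ttggtgaagaacacaagacttcctgtggcc
Adamts4 at chr1:173189952-173190011, second: cgcatctttgagcattagttttctcatgtg
Adamts4 at chr1:173190709-173190768, brighter: aatgagaggaacaggatgtggtctggtatt
Adamtsl5 at chr10:79804077-79804136, second: ttgctcatctacaaaagccgcacgcctctg
Adamtsl5 at chr10:79805527-79805586, brighter: aagtttggctcctgggagccaaggctcttg

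The Adam11 probes lie 3159 bases apart, and the files annotate both to the same 2 RefSeq transcripts. The brighter gave 246.8 and 246.5 at 0 h, 249.2 and 246.1 at 6 h, 250 and 258.4 at 24 h, and 266.2 and 262.7 at 72 h, with no call in 5 comparisons. The second gave 70.1 and 67.3 at 0 h, 45.2 and 49.0 at 6 h, 34.7 and 36.7 at 24 h, and 27.2 and 29.1 at 72 h, lower at each later time without overlap. In a fit of every probe it was -0.51, -0.96 and -1.28 from 0 h at 6, 24 and 72 h (SE 0.081, limma adjusted p of 0.0154, 0.000751 and 0.000176). The second probe's change minus the brighter's was -0.552 at 6 h (adjusted p = 0.105), -0.99 at 24 h (adjusted p = 0.0136) and -1.39 at 72 h (adjusted p = 0.00147). The 24 h result was lost without 0 h replicate 2 (-1.018, adjusted p = 0.0564) and without 24 h replicate 2 (-1.007, adjusted p = 0.0768).

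The Adamtsl5 probes are each annotated to 1 RefSeq transcript, not the same for both. The second gave 384.6 and 391.0 at 0 h, 423.3 and 404.6 at 6 h, 390.8 and 365.4 at 24 h, and 409.8 and 392.6 at 72 h, with no call against 0 h, whereas the brighter rose as given above. The difference between their changes was -0.73 at 72 h (adjusted p = 0.00538) and -0.46 at 24 h (adjusted p = 0.052). Both Adamts4 probes rose at 6 h, the second by 0.72 and the brighter by 0.63 on the log2 scale. At 72 h the second was still above 0 h, with 1464.2 and 1449.9 at 72 h against 1171.2 and 1150 at 0 h (0.34, adjusted p = 0.00415 in the fit of every probe), and its change exceeded the brighter's by 0.42 (adjusted p = 0.0121). This was lost without 0 h replicate 2 (0.387, adjusted p = 0.0633) and without either 72 h array (0.394 and 0.445, adjusted p of 0.0755 and 0.058). The files give the brighter Adamts4 probe no RefSeq transcript, and it is named by its symbol.

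The Adam17 probes start 8 bases apart and share 52 bases. Their first 30 bases, with the 22 that both hold in capitals, are shown because nearly the same target gave calls of unlike kind.
Adam17 brighter: ttgatgtcTGTGAATTACTAATAAAGCTAC
Adam17 second: TGTGAATTACTAATAAAGCTACgcacatgt
The second gave 92.5 and 78.5 at 0 h, 70.3 and 72.4 at 6 h, 83.4 and 80.6 at 24 h, and 60.6 and 68.5 at 72 h. In the fit of every probe it was -0.39 at 72 h against 0 h (adjusted p = 0.0263) where the brighter was -0.082 (adjusted p = 0.297). The test of the difference between them, -0.31, did not pass (adjusted p = 0.161).

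The other pairs did not differ past the test. Both Adamts5 probes fell, the second by 0.83, 0.46 and 0.63 on the log2 scale at 6, 24 and 72 h (adjusted p of 0.0166, 0.0438 and 0.0119), and its smaller fall at 72 h differed from the brighter's by 0.84 (adjusted p = 0.0697, and 0.0245 when 1 array of 6 h was left out). The second Adamts2 probe gave -1.36 at 72 h (adjusted p = 0.00779). The second Adamts14 and Adam33 probes, well above background on 6 and 2 of 8 arrays, had no call.

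**Figure D4:**
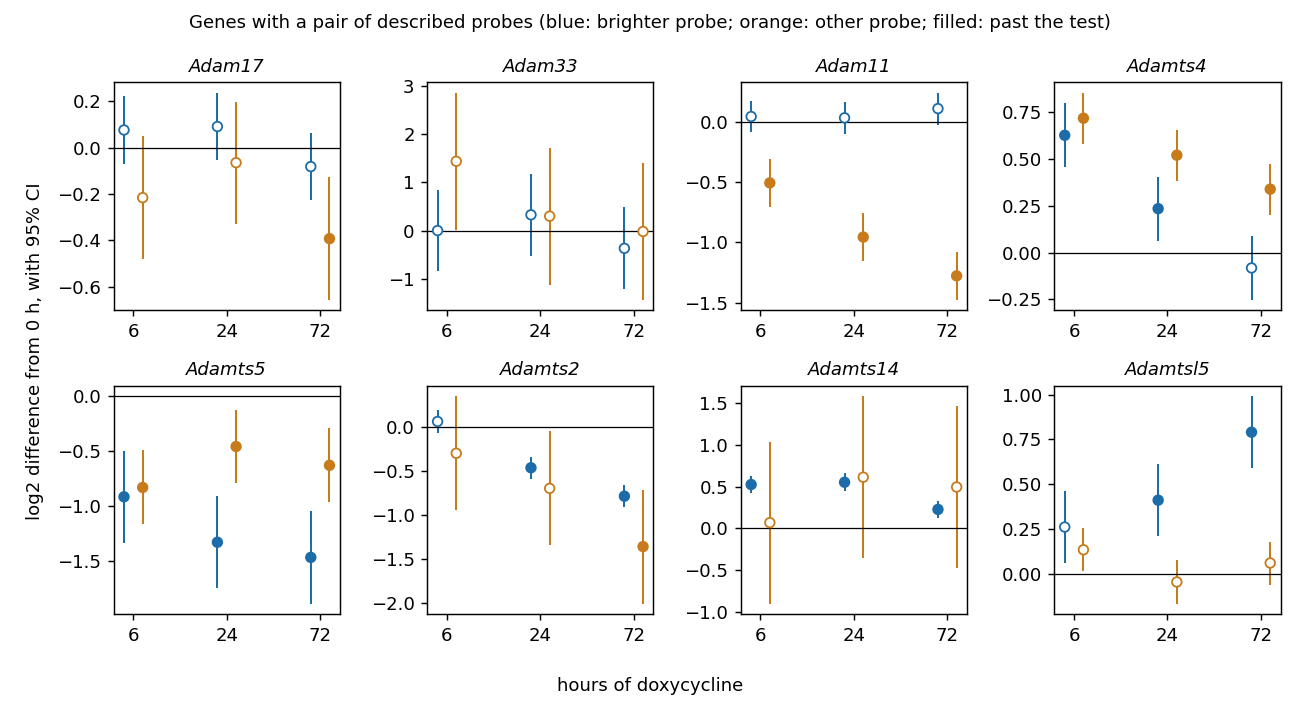
Log2 difference from 0 h at 6, 24 and 72 h for the 8 genes with a pair of described probes (panels, own range each), with 95% confidence intervals, the brighter probe in blue, the other in orange, filled where the adjusted p passed the threshold. At 72 h the Adam11 probes lie farthest apart, with -1.28 for the second and 0.111 for the brighter, and both Adamts5 probes lie below 0 throughout.

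The rule on background split some members narrowly. Just inside were the second Adam33 probe (13.4 and 44.7 at 6 h) and Adam4 (17.7 and 19.0 at 6 h). Just outside was Adam21, with 21.0 and 18.2 on the single arrays of 0 and 24 h that were well above background. Probes of Adam5 (17.6 at 0 h replicate 1), Adam34 (21.4 at 6 h replicate 2), Adamts18 (99.2 at 24 h replicate 2) and a second Adam22 probe (287.9 at 6 h replicate 1) were well above background on 1 array each. On the replicate array of that time Adamts18 gave 7.0 and the Adam22 probe 3.8. Of the described genes, Adam12, Adam22, Adam23, Adam32, Adamts8 and Adamts16 each also had at least 1 probe that was not described.

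The genes not described were, among the Adam genes, Adam1b, Adam2, Adam3, Adam5, Adam6a, Adam7, Adam18, Adam21, Adam24, Adam25, Adam26a, Adam28, Adam29, Adam30, Adam34 and Adam39. Many of these are known from testis or sperm. Among the secreted families they were Adamts3, Adamts6, Adamts12, Adamts13, Adamts15, Adamts17, Adamts18, Adamts19 and Adamts20, and Adamtsl1, Adamtsl2 and Adamtsl3. Not well above background does not show that their RNA was absent.

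Regulators of shedding and of protease activation were listed as the next step of the pathway, from the Timp inhibitors and Reck to iRhoms, proprotein convertases and the tetraspanins that escort Adam10. Of 18 listed, 16 were measured: 4 were higher and 4 lower at 6 h, 4 and 6 at 24 h, and 2 and 7 at 72 h than at 0 h, and their median log2 difference was 0.062, -0.057 and -0.031. Over all genes 10.3% were higher and 7.24% lower at 6 h, 21.3% and 20.1% at 24 h, and 27.4% and 24.6% at 72 h, with medians of 0.005, -0.016 and 0.002. The largest changes were in Timp3, Rhbdf2, Tspan15 and Reck. Timp3, the inhibitor that binds Adam17 and the aggrecanases, was -1.06 at 24 h and -1.52 at 72 h (limma adjusted p of 9.79e-05 and 2.42e-05). Rhbdf2, an iRhom that brings Adam17 to the surface, was 0.87, 0.67 and 0.66 higher at 6, 24 and 72 h (adjusted p of 0.0017, 0.000942 and 0.000639). Tspan15, a partner of Adam10, was -0.51, -0.69 and -0.78 (adjusted p of 0.00545, 0.000639 and 0.000244). Reck, a membrane-anchored inhibitor, was -0.63 at 24 h and -0.41 at 72 h (adjusted p of 0.00276 and 0.00985).

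Known substrates of Adam10 and Adam17 that passed the test were more often higher than lower, most so at 6 h. Over all genes 10.3% were higher and 7.24% lower at 6 h, 21.3% and 20.1% at 24 h, and 27.4% and 24.6% at 72 h. Of the 26 substrates listed, 23 were measured: 12 were higher and 1 lower at 6 h, 13 and 5 at 24 h, and 11 and 7 at 72 h than at 0 h, with a median log2 difference of 0.293, 0.274 and 0.028 against 0.005, -0.016 and 0.002 over all genes. Ereg and Areg, which encode EGF receptor ligands, were 8.35- and 5.6-fold higher at 6 h, 6.65- and 6.39-fold at 24 h, and 5.3- and 3.22-fold at 72 h (limma adjusted p of 0.00019 and 0.00445 at 6 h, 0.00013 and 0.000971 at 24 h, and 7.58e-05 and 0.00343 at 72 h). Vcam1, an adhesion molecule, was 4.49-, 5.4- and 1.45-fold higher (adjusted p of 7.51e-05, 3.96e-05 and 0.00123). Epgn, another ligand of the EGF receptor, was 2.74-fold lower at 24 h and 5.79-fold lower at 72 h (adjusted p of 0.0312 and 0.0033).

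Among matrix substrates of the ADAMTS proteases, those that passed the test at 72 h were mostly lower. Of 17 listed, 13 were measured: 1 was higher and 1 lower at 6 h, 1 and 5 at 24 h, and 2 and 9 at 72 h than at 0 h, with a median log2 difference of -0.091, -0.287 and -0.482 against 0.005, -0.016 and 0.002 over all genes. The 6 called at 24 h compare with 41.5% of all genes and the 11 at 72 h with 52% of all genes, 27.4% higher and 24.6% lower. The largest changes were in Col3a1, Col2a1, Vcan and Col1a2. Col3a1 and Col1a2, substrates of the procollagen N-proteinases, were -1.31 and -0.92 at 72 h (limma adjusted p of 6.21e-05 and 0.000804), and Col2a1 was -1.12 (adjusted p = 4.04e-05). Vcan, the versican gene, was 0.77 higher at 24 h and 0.94 at 72 h (adjusted p of 0.00165 and 0.000518). Fibroblast markers moved with them: 6 of 8 measured were lower and 2 higher at both 24 and 72 h, and their summed level was 469 to 494 times the array's 75th percentile at 24 h and 496 to 511 at 72 h, against 574 to 578 at 0 h. Col1a1, Col1a2 and Col3a1 are in both lists, and the part of the markers in these results was not tested.

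Of markers of other cells, the 4 measured epithelial markers (2 higher at 24 h, 2 higher and 2 lower at 72 h) summed to 4.31 to 5.12 times the 75th percentile at 24 and 72 h against 3.03 to 3.76 at 0 h, and the 4 endothelial markers, of which 1 was lower and none higher at both 24 and 72 h, to 2.26 to 2.49 on all arrays. The 3 measured markers of skeletal muscle (1 higher and 1 lower at both 24 and 72 h) summed to 2.2 to 2.86 on the induced arrays against 1.79 at 0 h, and the 3 of adipocytes (1 higher and 1 lower at 24 h, 1 higher and 2 lower at 72 h) to 3.89 to 4.03 at 72 h against 6.19 to 6.29 at 0 h. Their part in the members' changes was not tested.

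Promoter sequence from RefSeq (GRCm38.p6) was matched by symbol for 16 of the 28 genes, in 18 windows of the 250 bases before an annotated start. Searched on both strands were the AP-1 motif TGANTCA, the Ets motif CCGGAA and the TATA box TATAAA, and no 2 of these overlap in these windows. TGANTCA was found in 1 of the 18 windows (Adam19), against 6.75% of all 32851 windows. CCGGAA was found in 3 (Adam15, Adam17 and Adamts14), against 12% of all windows, and TATAAA in 2 (Adam6b and Adamts1), against 12.4%. A match is a description of these letters and not of a bound site, and no match speaks only of this window. The windows of 3 genes that rose and hold a match are shown with the matched letters in capitals: 1 of the 3 Adam19 windows, at chr11:46055734-46055983 on the + strand, with its AP-1 motif starting 131 bases before the annotated start, Adamts14 at chr10:61273420-61273669 on the - strand, with its Ets motif starting 196 bases before it, and Adamts1 at chr16:85803114-85803363 on the - strand, with its TATA box starting 32 bases before it.
Adam19: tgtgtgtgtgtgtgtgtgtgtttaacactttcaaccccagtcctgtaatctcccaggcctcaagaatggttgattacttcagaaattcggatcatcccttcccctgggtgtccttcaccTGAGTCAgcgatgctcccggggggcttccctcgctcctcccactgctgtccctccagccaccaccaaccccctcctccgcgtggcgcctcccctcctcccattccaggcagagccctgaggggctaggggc
Adamts14: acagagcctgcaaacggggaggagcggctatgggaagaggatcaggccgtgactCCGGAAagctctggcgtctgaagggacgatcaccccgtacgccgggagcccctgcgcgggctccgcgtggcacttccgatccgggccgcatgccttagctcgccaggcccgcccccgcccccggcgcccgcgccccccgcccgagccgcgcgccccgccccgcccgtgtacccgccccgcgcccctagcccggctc
Adamts1: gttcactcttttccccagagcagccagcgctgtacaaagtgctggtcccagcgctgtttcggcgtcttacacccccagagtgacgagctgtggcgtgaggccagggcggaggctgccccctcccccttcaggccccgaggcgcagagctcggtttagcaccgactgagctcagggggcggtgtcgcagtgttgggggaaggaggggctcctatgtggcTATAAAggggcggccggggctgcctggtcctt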

How the data were processed

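Total RNA of the 8 samples was labelled with Cy3 and hybridized to 1-colour arrays, per the labels' protocols. Per the file headers, Feature Extraction 10.5.1.1 quantified the scans on mm9, whereas the submitters' processing notes give 10.7.3.1. The deposited processed signal is a background-subtracted intensity per spot, per the file headers, and the authors' deposited value table holds the same intensity to within 0.497%.

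Here, outlier spots were left out, signals were put on the log2 scale, each array's 75th percentile over spots that are not controls was subtracted and spots of a probe were averaged. The brightest described probe stood for its gene. A mean for each of the 4 times was fitted with limma 3.58.1 in R 4.3.3, with 4 residual and 1.7 prior degrees of freedom, and adjusted p-values cover all 20839 genes. The method was tested on simulated data for 6 h against 0 h. It recovered 50.6% of 1.5-fold, 76.8% of 2-fold and 92.3% of 4-fold changes. A much smaller share of genes changed in that simulation than passed the test in these data. Sequences were read with Python 3.11.15. The number of arrays limits the precision. Member probes were named through RefSeq accessions for 76 and by symbol for 6. The members, the pathway and marker lists and the tests were chosen with earlier results of these data known. Every described member is named, with the value on each array where it passed in at least 1 comparison, and up to 4 called genes with the largest difference from 0 h for each pathway list. Alternatives were background correction, scaling, the filter on dim probes, a floor, the probe rule, the replicate block, the spread, outlier spots and each array left out. The test of probe pairs was added later. The 8 arrays share 1 slide and 1 scan.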

Additional observations from a re-analysis of the deposited data

How the results depend on the processing

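Of the 61 differences between times that passed the test for the 28 genes, 35 kept their direction and passed under every alternative setting that tested them and 26 lost the call under at least 1. There were 21 such settings, but 20 for Adam1a and Adamts16. The filter for probes well above background on all arrays leaves these genes out. Of the 79 that did not pass, 23 passed under at least 1. Of the counts of called members, 72 h against 24 h gave 7 with median scaling, where 12.6% of all genes passed. It gave 3 with no filter on dim probes, where 2.57% of all genes passed. For 6 h against 0 h the count was 5 with no filter, against 2.41% of all genes. With no filter 36095 genes were tested, and the members then include those not described here. Leaving out each array in turn gave 5 to 8 called members at 6 h, 12 to 16 at 24 h and 15 to 17 at 72 h against 0 h, 9 to 11 for 24 h against 6 h and 6 to 9 for 72 h against 24 h. The low values came without 0 h replicate 2 or 6 h replicate 1 (5 each) and without 24 h replicate 1 or either 72 h array (6 each); the lone array of a time was assumed to vary like the other times. Directions turned for Adam15 at 72 h with median scaling (0.035), for Adamts16 from 24 to 72 h with a common floor (0, both sides at the floor), for Adam11 at 24 and 72 h with the mean of its probes (-0.461 and -0.584, with adjusted p of 0.00259 and 0.000761 in limma), and for the difference between the Adamts14 probes at 24 h with normexp (-0.399, adjusted p = 0.0212 in limma). Of the 61 calls, no filter on dim probes ended 16, median scaling 12, the mean of a gene's probes 6 (4 of Adamts14 and 2 of Adamts2), normexp 5, the percentile over detected probes 3, quantile normalization 2, and a common floor, a spread with an intensity trend and the replicate block 1 each. Normexp, which adds an offset before the log, moved 9 called folds of Adam1a, Adam22, Adamts5 and Adamts16 by over 1.5 times, all with the same direction and still called. The causes of these changes were not tested. The mean for Adam11, as for Adamts14 and Adamts2, takes in both described probes, and the second Adam11 probe fell. Differences that were not called changed sign 66 times over the settings. With the replicate number as a block (replicate block), 7, 16 and 18 members passed at 6, 24 and 72 h against 0 h. Of all genes 19.5%, 44.2% and 54.7% passed there. For 24 h against 6 h 10 members passed, against 28.3% of all genes, and for 72 h against 24 h 12, against 24% of all genes. The block fit called Adam26b at 24 and 72 h and Adamts10 at 24 h and lost Adamtsl4 at 6 h (adjusted p = 0.0505 in limma). Deviations of same-numbered arrays correlated at 0.0557 to 0.171, all positive. Replicate 1 had the larger share of spots well above background at each time. The shares were 53.3% and 51.5% at 0 h, 54.7% and 50.2% at 6 h, 52.1% and 49.9% at 24 h, and 53.7% and 50.3% at 72 h. The replicate number is also the slide column, so their effects cannot be told apart. Members near background, such as Adam4, Adam6b and Adam33, had wide intervals, so changes under about the size of those intervals were not detectable for them.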
